A study of Oryza sativa Indica Group with 2 samples.

Results

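Chromosome 9 is one of the smaller chromosomes of rice, and its short arm carries ribosomal RNA repeats. Its long arm holds a tandem group of DREB1 genes, whose factors bind a promoter element shared by many cold-induced genes, beside genes for light harvesting, cell wall glucans, ethylene and abscisic acid. The loci described here are all those of the authors' deposited comparison table whose identifier begins with LOC_Os09g. They number 291 of the 3946 loci in the table, and each is given by the coding-sequence model with the largest mean log2 share of reads. Within the table they were taken by identifier alone. The table itself was chosen on measured values, since the authors listed 5804 models with an adjusted p under 0.05, or 8.61% of the 67393 that their adjustment implies were tested.

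Leaf messenger RNA was compared between 2 rice breeding lines of the IRGA series, 1 tolerant of cold and 1 sensitive to it, whose pedigree names share a stem. Plants of both were about 20 days old with 3 leaves and had stood for 6 h at 10 °C in light of 40 µmol m-2 s-1. Each line is represented by 1 library from the pooled leaves of 9 plants, and no unchilled plants were sampled. The comparison therefore asks which transcripts differed between chilled leaves of the lines, and it cannot show which of them answered to the cold.

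The deposited table does not tie the sign of its fold changes to a line. Library A here means the sample on top of that ratio and library B the one below it. Reads recovered from the table were scaled to sizes of 12846997 for A and 12152372 for B, and levels are given as RPM, reads scaled to a common library size, not corrected for transcript length. A log2 ratio is that of A over B, so a negative value means a higher level in B, and its range in brackets is a 95% exact Clopper-Pearson interval that covers counting error only. With 1 library per line there is no replicate check, line and library cannot be told apart, and no test of a difference between lines, or between chromosomes, was run. In whole leaves, fewer cells of a type and less RNA per cell cannot be told apart either.

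All 4 leaf genes chosen as a check of the tissue were in the table, and 3 of them were clearly higher in B: the Rubisco small subunit gene RBCS at a log2 ratio of -1.19, CAB2R at -1.24 and PSAH at -0.85. RCA, for Rubisco activase, was near equal at -0.085. Of 4 root and flower markers, the root silicon transporter gene LSI1 had 71 and 105 reads, and RCC3, MADS7 and MADS8 were not in the table. The largest adjusted p of a chromosome 9 locus in the authors' deposited table, from edgeR, was 0.0487. Genes not in the table have no value here.

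Of the 291 loci, 167 had a higher level in library B and 124 in library A. Relative to the median of all loci in the table, a log2 ratio of -0.31, the split was 154 and 137. Among all listed loci of the genome 58.6% were higher in B and 41.4% in A, so the 57.4% and 42.6% on chromosome 9 lay near that background. The median log2 ratio of the 277 loci read in both libraries was -0.35, against -0.31 for all such loci of the table. Chromosome 9 as a whole thus had nearly the table's balance of directions.

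The size of the ratios stood further from the table's. At least 1 log2 separated the libraries at 94 of the 277 loci, or 33.9%, where 25.3% of all loci read in both libraries did so. Of these 94 loci, 62 were higher in B, a share of 22.4% beside 16.8% over the table. The other 32 were higher in A, a share of 11.6% beside 8.48%. The larger side turned over relative to the table's median, with 52 such loci for A against 42 for B on chromosome 9, and 482 against 402 over the table. At least 2 log2 separated 38 loci (24 higher in B, 14 in A), or 13.7%, beside 7.38% over the table. The median absolute log2 ratio was 0.70 on chromosome 9 and 0.57 over the table.

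Level bears on these shares, because a weakly read locus enters the table only with a large ratio. On chromosome 9 the smallest absolute log2 ratio listed was 0.99 below 100 reads, 0.30 from 100 to 999 reads, and 0.089 at 1000 reads or more. The chromosome's loci were also read somewhat less, with a median of 493 reads against 626 for the table. Within the class of 100 to 999 reads, 31.2% of 144 loci on chromosome 9 were at least 1 log2 apart, and 21.5% of 1676 loci on the other chromosomes were. At 1000 reads or more the shares were 8.79% of 91 and 4.65% of 1419. In the weakest class nearly every locus passed, 97.6% of 42 and 95.6% of 474. The larger share on chromosome 9 was thus present in both better-read classes, which is a description without a test.

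**Figure D1:**
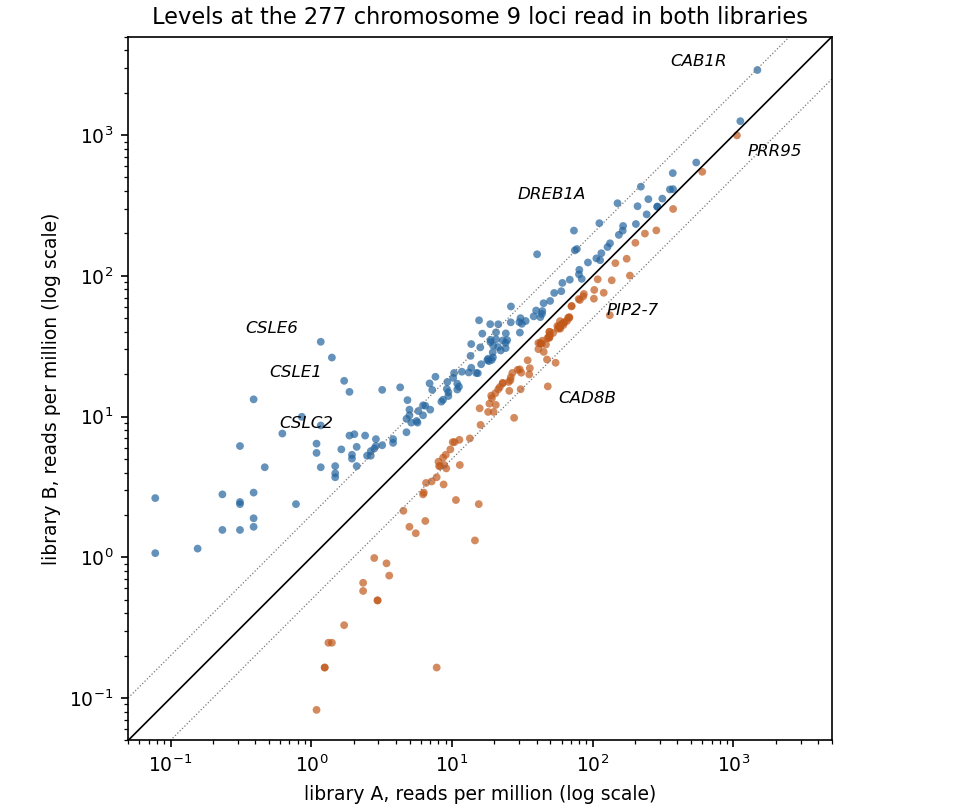
Level in library A (x axis) and library B (y axis), both in RPM on log scales, at the 277 loci of chromosome 9 read in both libraries. The solid line marks equal levels and the dotted lines a ratio of 1 log2 either way; points above the line (blue) were higher in B, and CSLE6, at 1.17 and 34.0 RPM, lies farthest above it among the labelled genes.

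Chromosomes 7 and 11 resembled chromosome 9 most in the size of the ratios. At least 1 log2 separated the libraries at 34.0% of the loci of chromosome 7 and 32.2% of those of chromosome 11, while the remaining 9 chromosomes ranged from 18.2% to 28.3%. The sides differed among the 3: 47 loci higher in A and 58 in B on chromosome 7, 37 and 40 on chromosome 11, and 32 and 62 on chromosome 9. Relative to the table's median the counts were 60 and 34 on chromosome 7, 51 and 24 on chromosome 11, and 52 and 42 on chromosome 9.

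**Figure D2:**
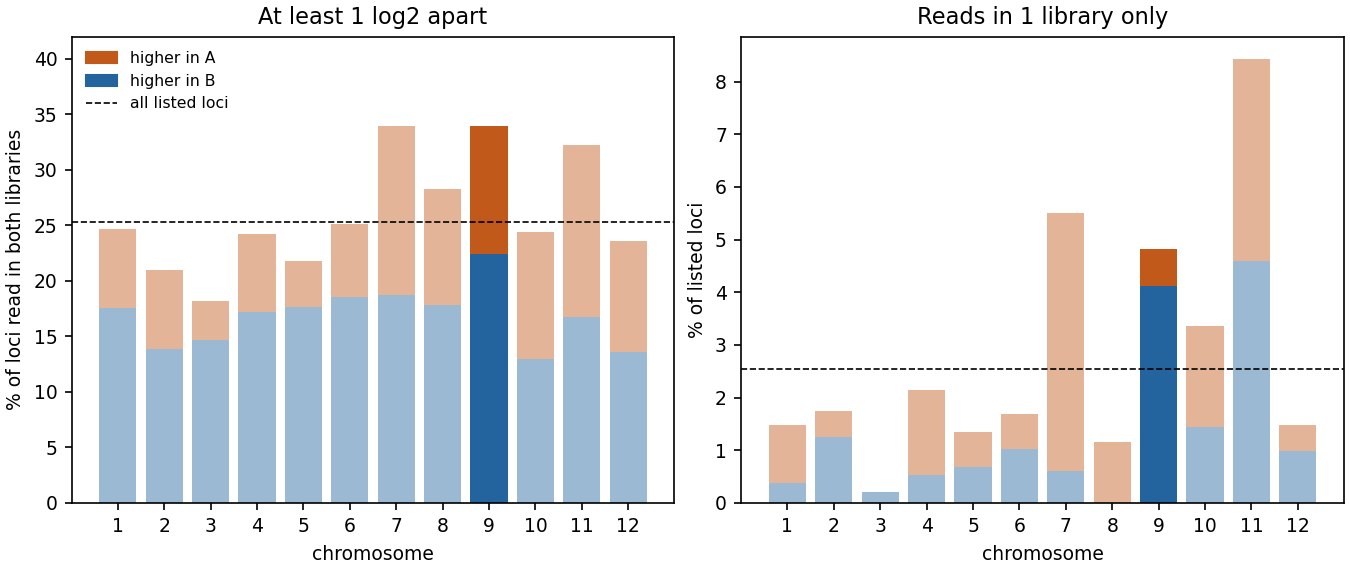
Left, share of the loci read in both libraries that were at least 1 log2 apart, by chromosome, split into those higher in A (orange) and in B (blue). Right, share of listed loci with reads in 1 library only; dashed lines give the shares over all loci, 25.3% and 2.53%, and chromosome 9 is drawn in full colour at 33.9% and 4.81%.

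Along the chromosome the direction changed. Locus numbers run from one end to the other and give order, not base pairs. Below number 24000, a boundary drawn after the values had been seen, 50 of 74 loci were higher in A and 24 in B. From 24000 on, 74 were higher in A and 143 in B. Relative to the table's median the loci read in both libraries divided into 53 and 18 below the boundary. Listed loci were also sparser there, 74 below number 24000 against 217 from 24000 to 39999.

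Windows of 2000 locus numbers show where the change lies. In the 12 windows below 24000 the window from 4000 to 5999 alone had more loci higher in B, 2 of 3 (0 of 3 relative to the table's median), and the window from 6000 to 7999 had 4 each way. The window from 24000 to 25999 had 21 of 33 loci higher in B, and that from 26000 to 27999 had 23 of 33. Later, 2 windows went the other way: 28000 to 29999 with 15 of 27 higher in A, and 36000 to 37999 with 11 of 18. Within the first of them, numbers 28000 to 28999 had 10 of 16 loci higher in B, and 29000 to 29999 had 9 of 11 higher in A. The last window, 38000 to 39999, again had 25 of 33 higher in B, and all 25 stayed so relative to the table's median.

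**Figure D3:**
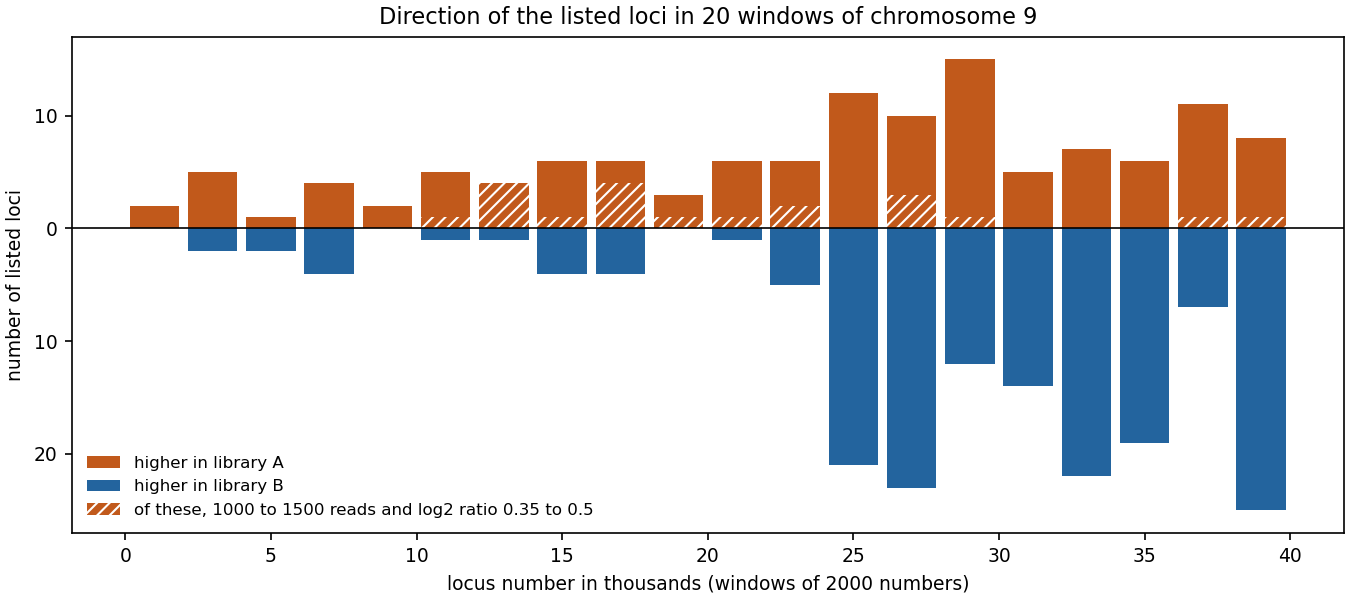
Number of listed loci higher in library A (orange, upward) and in library B (blue, downward) in 20 windows of 2000 locus numbers along chromosome 9; hatching marks loci of 1000 to 1500 reads with a log2 ratio of 0.35 to 0.5. Windows below 24000 are sparse and lean to A, 50 loci against 24, and those beyond lean to B, 143 against 74.

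Many loci of the sparse region had nearly the same read numbers. Over the table, 251 loci (6.36%) had 1000 to 1500 reads and a log2 ratio between 0.35 and 0.5. This class was drawn after the values had been seen and holds by its definition only loci higher in A. On chromosome 9 it took in 20 loci (6.87%), near the table's share, while chromosomes 11 and 12 had 11.1% and 14.9%. Of those 20, 14 lay below number 24000, or 18.9% of the listed loci there, beside 2.76% from 24000 on. Examples are LOC_Os09g13500 with 810 reads in A and 571 in B and LOC_Os09g13550 with 858 and 611. Removing the class can only lower the count for A, which became 36 against 24 for B in the region. With a different removal, of the loci that lay within 1% of another locus in both read numbers whatever their direction, the region had 23 and 16, against 48 and 108 beyond it. That removal took 47.3% of the listed loci in the region and 28.1% beyond it, beside 36.4% over the table. It also took weakly read loci, such as LOC_Os09g17660 with 0 reads in A and 9 in B. Whether the like loci share reads was not tested.

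The ratios in the 2 parts differed in size as well. Below 24000, 15 of 71 loci read in both libraries were at least 1 log2 apart (21.1%), of which 10 were higher in A. Between 24000 and 31999 the count was 47 of 106 (44.3%), with 32 higher in B, and from 32000 on it was 32 of 100, with 25 higher in B. Relative to the table's median the sides from 24000 on were nearly even, 21 for A and 23 for B up to 31999 and then 15 and 17, while below 24000 they were 16 and 2. The table's share, 25.3%, lies between the first value and the others. Median reads per locus were 740.5, 332 and 446 in these 3 parts, so level moved with the share, and its part in the result was not tested.

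**Figure D4:**
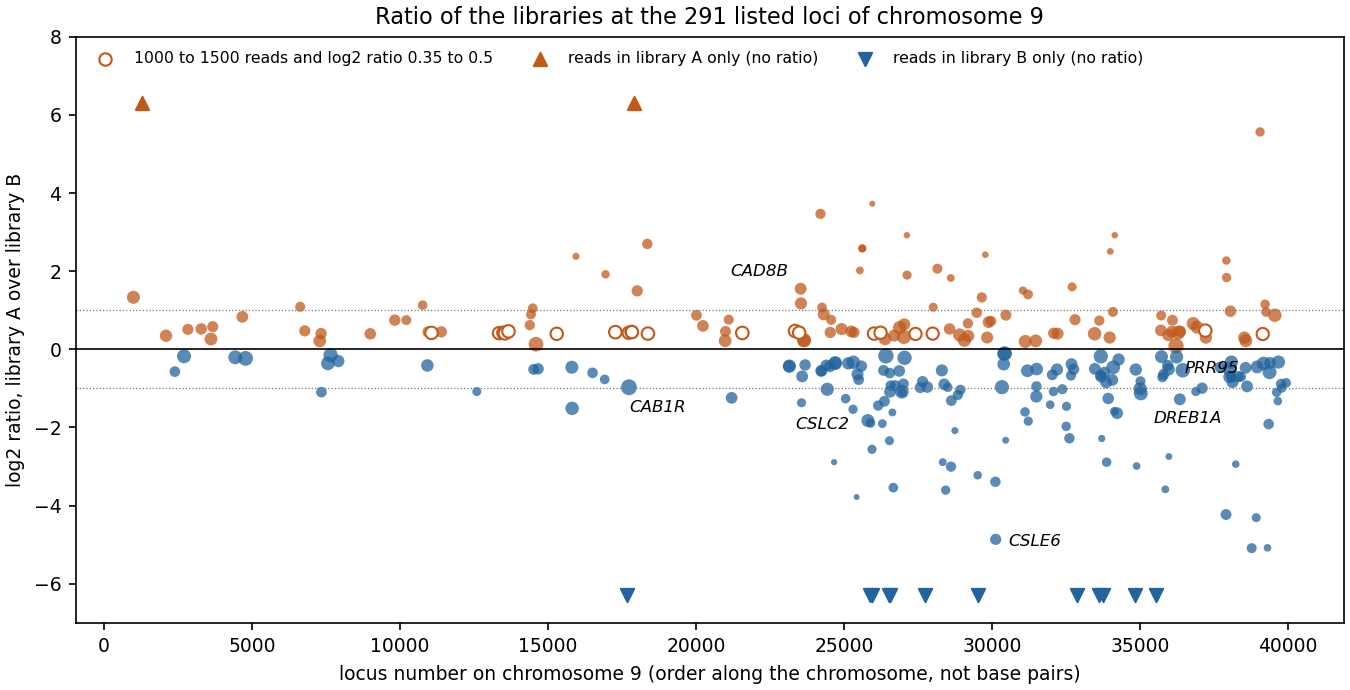
Log2 ratio of library A over library B (y axis) at each listed locus by its number along chromosome 9 (x axis); larger points have more reads, open circles are loci of 1000 to 1500 reads with a ratio of 0.35 to 0.5, and triangles are loci read in 1 library only. Ratios below -3 appear only beyond number 24000, and 11 of the 12 loci read in B alone lie there too. Of all 291 listed loci, 217 lie beyond that number.

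At 14 loci of chromosome 9, or 4.81%, a single library held all reads, beside 2.53% of loci over the table. It was B at 12 of them (4.12%, beside 1.17% over all loci) and A at 2 (0.687%, beside 1.37%). Chromosome 11 also had 12 loci read in B alone, 4.6% of its loci, along with 10 read in A alone. The read numbers of the 12 were small, from 9 to 40 with a median of 20. The strongest was LOC_Os09g26554, with 40 reads in B, or 3.29 RPM (2.35 to 4.48), and 0 in A. Set against 0.234 RPM, the worth of 3 reads in A, its lower limit was at least 10-fold higher. LOC_Os09g25934 and LOC_Os09g34847 had 25 reads each in B and none in A, at least 5.7-fold higher by the same measure. The weakest 2, LOC_Os09g17660 and LOC_Os09g25880, had 9 reads and were at least 1.4-fold higher. Such values lie close to the detection limit of these libraries.

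In library A alone, LOC_Os09g17920 had 222 reads, or 17.3 RPM (15.1 to 19.7), at least 61-fold higher than the 0.247 RPM of 3 reads in B. The other such locus, LOC_Os09g01300, had 14 reads and was at least 2.4-fold higher. LOC_Os09g17920 stood among neighbours of the same direction: with LOC_Os09g18020 (355 reads in A, 119 in B) and LOC_Os09g18360 (199 and 29) it belonged to a run of 11 listed loci from LOC_Os09g17830 to LOC_Os09g21110, all higher in A. That was the longest run under the authors' scaling, and 3 of its loci belonged to the class hatched in the plot of windows. Relative to the table's median it still held 11 loci, and a run of 12 higher in A went from LOC_Os09g02710 to LOC_Os09g07340.

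The longest runs higher in library B held 9 loci each under the authors' scaling, and 8, 7 and 7 relative to the table's median, where LOC_Os09g26420, BGLU31 and LOC_Os09g34280 turned positive. They went from LOC_Os09g26420 to LOC_Os09g26670, from LOC_Os09g33670 to LOC_Os09g33930 and from LOC_Os09g34230 to LOC_Os09g35540. Their median log2 ratios were -1.09, -0.78 and -1.01 over the loci read in both libraries, and they held 2, 1 and 2 loci read in B alone. Longest runs on the other chromosomes held 4 to 14 loci for A and 9 to 14 for B, so runs of this length were found elsewhere too.

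The run up to LOC_Os09g35540 contains the DREB1 group. DREB1A (LOC_Os09g35030) had 1928 reads in A against 3986 in B, giving a log2 ratio of -1.13 (-1.21 to -1.05). DREB1B (LOC_Os09g35010) had 991 and 1885 reads and a ratio of -1.01 (-1.12 to -0.90). DREB1H (LOC_Os09g35020), which lies between them, was read far less, 66 times in A and 110 in B, and its ratio of -0.82 (-1.28 to -0.36) has an interval that takes in both of the others. The 3 neighbours were thus higher in B by like amounts, also relative to the table's median, at -0.82, -0.70 and -0.51 in the order named. Copies this alike in sequence may share reads, and how reads with several matches were counted is not given in the sources used here. Around the group, LOC_Os09g34847 and LOC_Os09g35540 were read in B alone, LOC_Os09g34890 had 4 reads in A and 30 in B, and LOC_Os09g34230 had 200 and 587.

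Stress transcription factors were listed with 12 members, of which 7 were in the table, all 7 higher in B and still so relative to the table's median. Over the genome 8.61% of models were listed, counted by model and not by locus, and 58.6% of listed loci were higher in B. The lists of genes were drawn up with earlier results of these data known, the DREB1 ratios among them, so their direction is no independent evidence. WRKY76 (LOC_Os09g25060), a WRKY factor studied in rice for blast disease and cold tolerance, had 37 reads in A against 84 in B, giving a log2 ratio of -1.26 (-1.86 to -0.69). WRKY62, its neighbour, was not in the table, nor were the heat stress factor genes HSFB1 and HSFB2C. The other 3 listed loci in the table, LOC_Os09g28310, LOC_Os09g16510 and LOC_Os09g30400, had smaller ratios of -0.54, -0.60 and -0.38. In all, 3 of the 7 were at least 1 log2 higher in B, beside 16.8% of all loci read in both libraries.

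The listed genes of starch, sugar and cell wall held the largest ratios among named genes. Of these 8 genes 4 were in the table, beside 8.61% of models over the genome. CSLE6 (LOC_Os09g30130) and CSLE1 (LOC_Os09g30120), adjacent genes of a family related to the cellulose synthases, were both read far more in library B. CSLE6 had 15 reads in A against 413 in B, or 1.17 and 34.0 RPM, giving a log2 ratio of -4.86 (-5.71 to -4.12). CSLE1 had 22 and 218 reads and a ratio of -3.39 (-4.09 to -2.75). These intervals do not overlap, so on counting error the ratios of the pair differed from each other. CSLC2 (LOC_Os09g25900), of a family that makes the glucan backbone of xyloglucan in Arabidopsis, had 26 and 91 reads and a ratio of -1.89 (-2.58 to -1.25). CESA9, for a cellulose synthase of the secondary wall, and the trehalose phosphatase gene TPP7 were not in the table.

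The listed member higher in A was PIP2-7 (LOC_Os09g36930), for an aquaporin of the plasma membrane. It had 1310 reads in A against 836 in B, giving a log2 ratio of 0.57 (0.44 to 0.69). Adjacent genes for cinnamyl alcohol dehydrogenases, enzymes of a family that reduces lignin precursors, were also higher in A. CAD8B (LOC_Os09g23540) had 616 reads in A against 199 in B, giving a log2 ratio of 1.55 (1.32 to 1.79), and CAD8C (LOC_Os09g23550) had 700 and 293, a ratio of 1.18 (0.98 to 1.38). Next to them LOC_Os09g23570 went the other way, with 25 and 61 reads and a ratio of -1.37 (-2.10 to -0.67).

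CAB1R (LOC_Os09g17740), for a chlorophyll-binding protein of the photosystem II antenna, had more reads than any other listed locus of the chromosome. It was read 19015 times in A and 35262 times in B, which is 1480.1 and 2902 RPM, a log2 ratio of -0.97 (-0.997 to -0.946). It lies in the sparse region where most loci were higher in A, directly before LOC_Os09g17830 among the listed loci. Of the 7 photosynthesis and pigment loci listed, 3 were in the table, beside 8.61% of models over the genome. All 3 were higher in B, as were 58.6% of all loci in the table. Besides CAB1R they were LOC_Os09g30340 at -0.97 and LOC_Os09g36450 at -0.54. SGR, the stay-green gene of chlorophyll breakdown, was not in the table.

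PRR95 (LOC_Os09g36220), a pseudo-response regulator of the circadian clock, was the best-read gene higher in A. It had 13602 reads in A against 12099 in B, giving a log2 ratio of 0.089 (0.053 to 0.12). That the interval lies above 0 is no separate result, because the table holds only models with an adjusted p under 0.05. TAC1 (LOC_Os09g35980), which sets the tiller angle, rested on 3 reads in A and 19 in B, and its ratio of -2.74 has a wide interval (-5.14 to -0.98). MADS8, HOX4 and HOX6, also listed under development, were not in the table.

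The hormone genes that could be named in the table were of ethylene synthesis, abscisic acid breakdown, jasmonate repression and cytokinin signalling. Most loci of the chromosome were not given a name. ACO1 (LOC_Os09g27820), for the enzyme of the last step of ethylene synthesis, had 204 reads in A against 377 in B, giving a log2 ratio of -0.97 (-1.22 to -0.72). ABA8OX3 (LOC_Os09g28390), for a hydroxylase that starts the breakdown of abscisic acid, had 242 and 426, a ratio of -0.90 (-1.13 to -0.67). These were the 2 of 6 listed hormone genes found in the table, beside 8.61% of models over the genome. JAZ8, IAA26 and OsPP108 were listed too and had no value.

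A further 18 names were added after the table had been seen, by matching loci with RefSeq gene names of the same region, and they are descriptions only. JAZ4 (LOC_Os09g23660), for a repressor of the jasmonate response, had 3018 reads in A against 2426 in B, giving a log2 ratio of 0.23 (0.16 to 0.31). AHP2 (LOC_Os09g39400), for a phosphotransfer protein of the cytokinin pathway, stood at -0.35 (-0.57 to -0.13), and relative to the table's median at -0.036.

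The 3 genes of HAK potassium transporters went 2 ways. HAK17 (LOC_Os09g27580) had 133 reads in A against 248 in B, giving a log2 ratio of -0.98 (-1.29 to -0.67). HAK18 (LOC_Os09g38960) had 883 and 1141, a ratio of -0.45 (-0.58 to -0.32). HAK23 (LOC_Os09g21000), the one below number 24000, had 202 and 139 and a ratio of 0.46 (0.14 to 0.78). HAK17 and HAK18 stayed higher in B relative to the table's median, at -0.67 and -0.14.

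The 3 neighbouring beta-glucosidase genes, whose enzymes release glucose from glucosides, were all higher in B under the authors' scaling. BGLU31 (LOC_Os09g33680) had 4012 reads in A against 4297 in B, giving a log2 ratio of -0.18 (-0.24 to -0.12), which turned to 0.13 relative to the table's median. BGLU32 (LOC_Os09g33690) had 252 and 388 reads and -0.70 (-0.94 to -0.47). BGLU33 (LOC_Os09g33710) had only 5 and 23 reads and -2.28 (-4.03 to -0.85). The ratio was nearest to 0 at the best-read copy and widest in its interval at the least-read one. Neither is a separate result, because few reads widen an interval and a weakly read locus enters the table only with a large ratio.

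Among the other added names, PSY3 (LOC_Os09g38320), for a phytoene synthase at the entry to carotenoid synthesis, stood at -0.70 (-0.98 to -0.42), with 176 reads in A and 270 in B. SAP1 (LOC_Os09g31200), a zinc finger gene of stress responses, stood at -0.55 (-0.68 to -0.41) with 782 and 1082. Also higher in B were UGE-3 (LOC_Os09g35800), for a UDP-glucose epimerase, at -0.65, the epidermal homeobox gene Roc6 (LOC_Os09g35760) at -0.71, and PPT1 (LOC_Os09g12600), for a plastid phosphate translocator, at -1.08 from 27 and 54 reads. RPEcyt (LOC_Os09g32810), for a cytosolic epimerase of the pentose phosphate pathway, was higher in A at 0.76 (0.46 to 1.06), with 263 reads in A and 147 in B. U2AF35A (LOC_Os09g31482), for a splicing factor subunit, was higher in A at 0.22 (0.083 to 0.35). RSH3 (LOC_Os09g27050), for an enzyme of the plastid alarmone ppGpp, stood at -0.22 under the authors' scaling and at 0.095 relative to the table's median. All 18 added genes were in the table, since they were looked for there, 12 higher in B and 6 in A. Relative to the table's median 10 were higher in B and 8 in A. Over all listed loci 58.6% were higher in B.

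**Figure D5:**
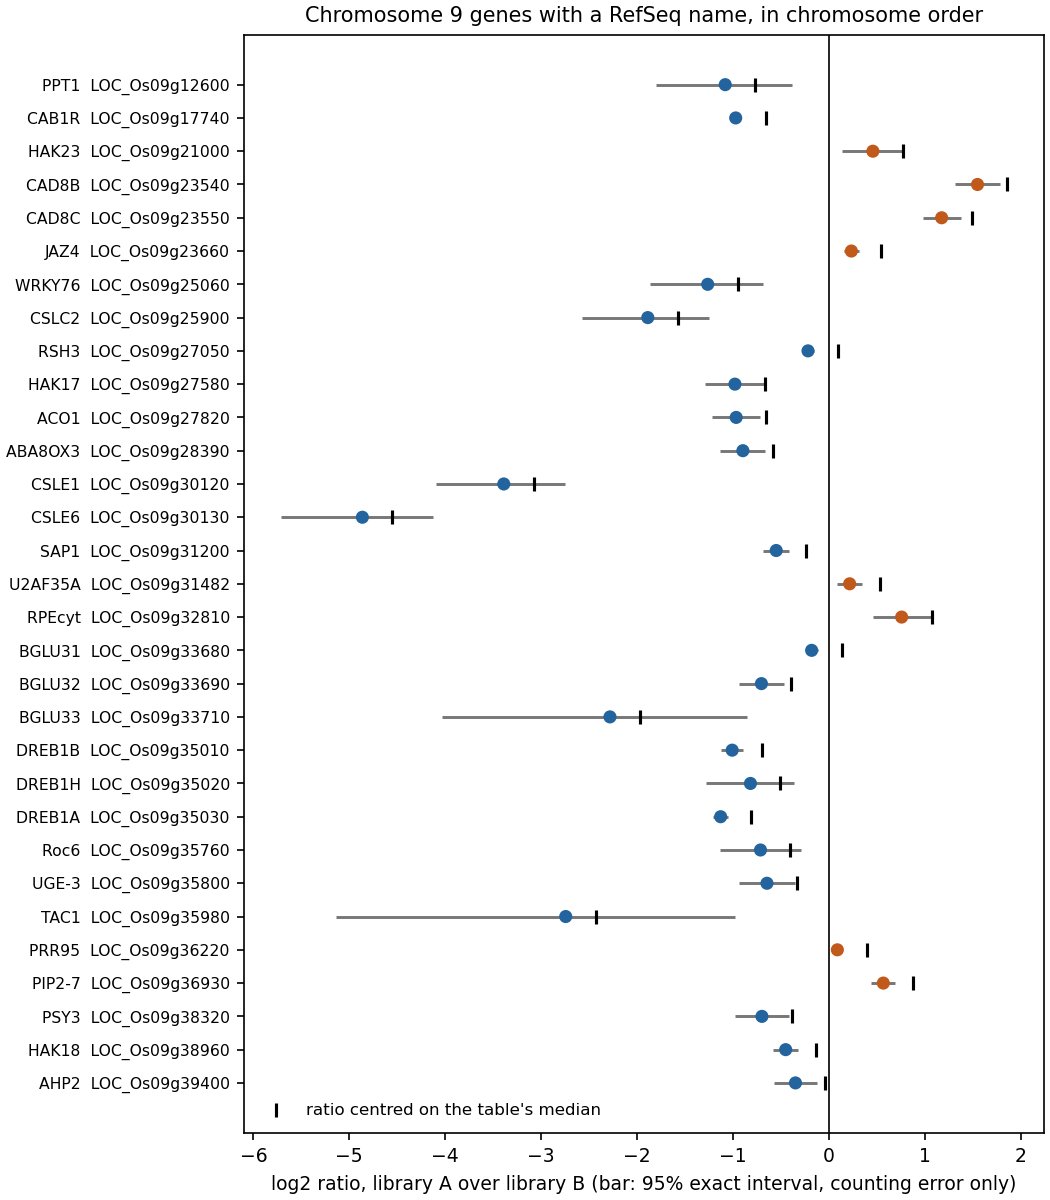
Log2 ratio of library A over library B (x axis) for the 31 loci with a RefSeq name, in order along chromosome 9; grey bars are 95% exact intervals for counting error and black ticks the ratio relative to the table's median. CSLE6 at -4.86 and CSLE1 at -3.39 lie farthest to the left and CAD8B at 1.55 farthest to the right; RSH3 and BGLU31 cross 0 when centred.

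Some of the largest ratios belong to loci without a name in the gene table used here. Among the 235 loci read in both libraries with at least 100 reads in all, LOC_Os09g38777 was lowest, with 5 reads in A against 161 in B, giving a log2 ratio of -5.09 (-6.73 to -3.84). LOC_Os09g37910 had 18 and 319 reads and a ratio of -4.23. LOC_Os09g28440, LOC_Os09g26670, LOC_Os09g28620 and LOC_Os09g33876 lay between -3.60 and -2.89. With CSLE6 and CSLE1 these are the 8 loci farthest on the side of library B. All 8 lie beyond number 24000, where 217 of the 291 listed loci lie.

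On the side of library A the highest was LOC_Os09g39060, with 100 reads in A against 2 in B, giving a log2 ratio of 5.56 (3.67 to 8.63), whose denominator is too small for a precise value. LOC_Os09g24210 had 187 and 16 reads and a ratio of 3.47 (2.73 to 4.30). LOC_Os09g18360 stood at 2.70 (2.13 to 3.31) and LOC_Os09g28160 at 2.06 (1.49 to 2.68). LOC_Os09g37930, CAD8B, LOC_Os09g18020 and LOC_Os09g31220 followed, between 1.84 and 1.41. These 8 were spread over both parts of the chromosome.

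Close neighbours did not always share a direction. Of 112 pairs of successive listed loci at most 30 locus numbers apart, 66 had the same direction. No such count was made for other chromosomes or for loci farther apart. In 6 pairs both members were at least 1 log2 apart between libraries, in opposite directions. The widest such contrast with over 50 reads at each locus was LOC_Os09g37910, at -4.23, beside LOC_Os09g37920, with 46 reads in A against 9 in B, giving a log2 ratio of 2.27 (1.23 to 3.49). LOC_Os09g31220 (112 and 40 reads, 1.41) and LOC_Os09g31230 (21 and 71 reads, -1.84) were another such pair. A direction shared by most loci of a stretch thus did not extend to each of its members.

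Most of the best-read loci differed little, though CAB1R, read most of all, stood at -0.97. The 8 best-read loci held 36.7% of the chromosome's 462099 reads, and CAB1R and LOC_Os09g36450 were the 2 among them whose ratios passed 0.5 in size. LOC_Os09g26420 had 14384 reads in A against 15271 in B, giving a log2 ratio of -0.17, and LOC_Os09g14600 had 7715 and 6667, a ratio of 0.13. LOC_Os09g04790 stood at -0.23 and LOC_Os09g07660 at -0.15. LOC_Os09g26420, LOC_Os09g04790 and LOC_Os09g07660 turned positive relative to the table's median.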

How the data were processed

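The authors deposited 1 table of their own comparison, with 5804 coding-sequence models. Per the file headers it gives for each model a log2 mean share of reads and a log2 fold change, with its p-value before and after adjustment, all adjusted values under 0.05. The submitters' processing notes name Bowtie 0.12.7 and edgeR. Not given in the sources used here are the genome build, the annotation release, strand use and the treatment of reads with several matches. Unequal alignment of the lines to the reference was not tested.

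Each library's share was solved from the log2 columns. All values were whole reads within 0.0001 of a read, with scaled library sizes of 12846997 and 12152372, and the step was tested on simulated data. Of 75 chromosome 9 loci with several models, none had models of differing direction. Intervals are exact, Poisson for levels and Clopper-Pearson for ratios; where a library had 0 reads, 3 reads served as its floor. They cover counting error only.

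Members and lists were chosen with earlier results of these data known. Named were the list members in the table, the 8 best-read loci, the 8 most extreme ratios per side among loci with at least 100 reads, and loci read in 1 library. Names pair locus identifiers with RefSeq symbols of assembly ASM3414082v1 by background knowledge. Of 66 names 44 were found there on chromosome 9. They comprise 26 of the 48 names first listed and all 18 added later, whose match follows from how they were added. Among the 20 first-listed names whose locus had a value, 13 were found. All 44 had the same order as the locus numbers, which is no independent check for the 18 added. The position given by the neighbouring names, added ones included, differed by at most 0.65% of the chromosome's length. The others are printed as identifiers only. Sequences were not used here. Alternatives were other scalings, pseudocounts, level filters, fold limits, windows and all models. Python 3.11.15, numpy 2.4.6, pandas 2.3.3 and scipy 1.17.1 were used.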

Additional observations from a re-analysis of the deposited data

How the results depend on the processing

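The removal of the class of 1000 to 1500 reads was added after the data had been seen. It left 104 loci higher in A and 167 in B, a fall that its definition fixes, and a median of -0.41. Loci higher in A (124) and in B (167) became 137 and 154 when centred, 132 and 159 with the table's own read totals, 107 and 129 with at least 100 reads, 172 and 243 over all models, and 71 and 124 without like read numbers. At 1 log2, with loci read in 1 library counted, they fell to 34 and 74, and at 2 log2 to 16 and 36, because fewer loci were counted. The median log2 ratio of -0.35 was -0.036 when centred and -0.50 without like read numbers. Loci at least 1 log2 higher in A (32) became 52 when centred and 16 with at least 100 reads; those higher in B (62) became 42 and 37. Loci read in A alone rose from 2 to 8, and in B alone from 12 to 17, with at most 3 reads tolerated on the opposite side. Among windows with at least 5 loci, most loci were higher in B in 6 of 16 windows of 2000 numbers (37.5%). The same held in 14 of 20 windows of 1000 (70.0%) and in 5 of 10 windows of 4000. Sparser windows were left out at each size, so these shares do not cover the same loci. Why the shares differ was not tested. Of 55 named loci read in both libraries, 7 turned positive when centred: LOC_Os09g04790 (0.080), LOC_Os09g07660 (0.16), LOC_Os09g26420 (0.15), RSH3 (0.095), BGLU31 (0.13), and LOC_Os09g30418 and LOC_Os09g30439 (0.20 each). With the table's totals 5 did: LOC_Os09g07660 (0.045), LOC_Os09g26420 (0.028), BGLU31 (0.016), LOC_Os09g30418 and LOC_Os09g30439 (0.087 each). Centring moved 24 more of the named loci beyond their intervals with the sign unchanged, DREB1A, DREB1B, CAB1R, CAD8B and CAD8C among them. The table's totals moved 16 more in this way. A pseudocount of 1 RPM moved 6 weakly read loci beyond their intervals, CSLE6 to -4.01, and 0.1 RPM moved none. No paired analysis was possible because each line has 1 library. Few reads leave wide intervals at TAC1, BGLU33 and LOC_Os09g39060, among others.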

Other observations

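LOC_Os09g30418 and LOC_Os09g30439, on the list of chaperone genes, had identical read numbers, 3697 for A and 3769 for B, so a log2 ratio of -0.11 that centring turned to 0.20. RefSeq places 2 Hsp90 genes in this interval of the chromosome, and which locus is which was not settled by name. LOC_Os09g24408, with 285 reads in A and 358 in B, shared its exact read numbers with 3 loci on chromosomes 4, 7 and 8. LOC_Os09g37210, with 755 and 512, shared them with a locus on chromosome 1. Of the 75 loci of chromosome 9 with several models in the table, in 25 every model carried equal reads, and the largest spread of the log2 ratio within a locus was 0.52.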
